A study of Sus scrofa with 9 samples.

Results

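The interferon response genes described here are 42 genes named by symbol: sensors of viral RNA, the transcription factors that carry the interferon signal, and interferon-stimulated genes. Of these, 39 had a row in the count table of 27339 genes and 38 had enough reads to be tested. They were chosen by name, with earlier results of these data known. The genes were measured by RNA sequencing in 9 libraries of pig myoblasts, the proliferating precursors of skeletal muscle, in 3 groups of 3. All groups were primary Gottingen pig myoblasts at passages 7 to 9 that carried a doxycycline-inducible transgene and received 1 µg/mL doxycycline for 16 h. The transgene was human DUX4 in the first group, pig DUXC in the second and GFP in the third, the control. The labels do not say how many animals or clones the cells came from, nor whether the libraries within each group are separate cultures. P-values therefore reflect the spread between libraries alone, and that spread may be technical.

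DUX4, a transcription factor with a pair of homeodomains, is active in the early embryo, and its misexpression in skeletal muscle is linked to facioscapulohumeral muscular dystrophy. DUXC is a related gene of the pig. In the interferon pathway, cytosolic helicases such as RIG-I (DDX58) and MDA5 (IFIH1) and the endosomal receptor TLR3 recognise double-stranded or viral RNA. Through MAVS and the kinase TBK1 the helicases activate IRF3 and IRF7, which switch on interferon genes. Secreted interferons then act through receptors, JAK kinases and a complex that holds STAT2 and IRF9 to raise a shared set of antiviral genes, in fibroblasts and muscle precursors as in most other cells.

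Total counts ranged from 36580573 to 44420895 per library. Levels below are normalised read counts in CPM, that is, relative to the library total and to TMM factors, which correct for differences in RNA composition. They depend on transcript length, so levels are compared between groups and not between genes. The 3 libraries of a group differed beyond counting noise in every pair, by a chi-square test whose statistic was 2.62 to 17.9 times its degrees of freedom. Of 11 myoblast markers only NCAM1 reached 10 CPM with GFP and 8 stayed under 1 CPM, whereas 10 of 10 fibroblast markers reached 10 CPM. The labelled cell type was therefore not borne out by most of the 11 myoblast markers listed, not all of which need mark proliferating cells. Expression of the transgenes themselves was not analysed here. Of the 39 genes, 12 overlap the span of another gene. These spans run from the start to the end of a gene, so an overlap need not mean shared reads. The strand setting of the counting is not given in the sources used here. Whether reads of such overlapping genes were mixed was not tested.

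With DUXC, nearly the whole set was higher than with GFP. Of 38 tested genes 36 rose and 2 fell, MAVS and IFI35, at an adjusted p under 0.05. All 38 thus passed, where 82.5% of all 15956 tested genes did. The share that rose was 94.7%, beside 40.2% of all tested genes. At least 2-fold increases were seen in 26 of the 38, where 21.3% of all tested genes rose as much, and no member fell 2-fold, where 7.97% of all did. The median log2 fold change of the set was 1.62, beside -0.031 over all tested genes. In 35 genes every DUXC library lay above every GFP library, as in 40.6% of all tested genes, and in 2 every one lay below, as in 42.9%. The summed level of the 39 genes was 534 to 542 CPM in the GFP libraries, 518 to 552 CPM in the DUX4 libraries and 1179 to 1366 CPM in the DUXC libraries. In such bulk libraries, fewer cells with a transcript and less of it per cell cannot be told apart.

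A gene scarce in the controls can pass the count filter only through the group in which it is abundant. Of the 38 tested genes, 6 did not reach the filter's level of 0.25 CPM in every GFP library: OAS1, OASL, MX2, ISG20, RSAD2 and HELZ2. Among the other 32 genes, 30 rose with DUXC and 2 fell, with 20 of the increases at least 2-fold. Of all genes that passed the filter in every GFP library, 33.5% rose and 49.1% fell with DUXC, and 11.7% rose and 8.97% fell at least 2-fold.

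**Figure D1:**
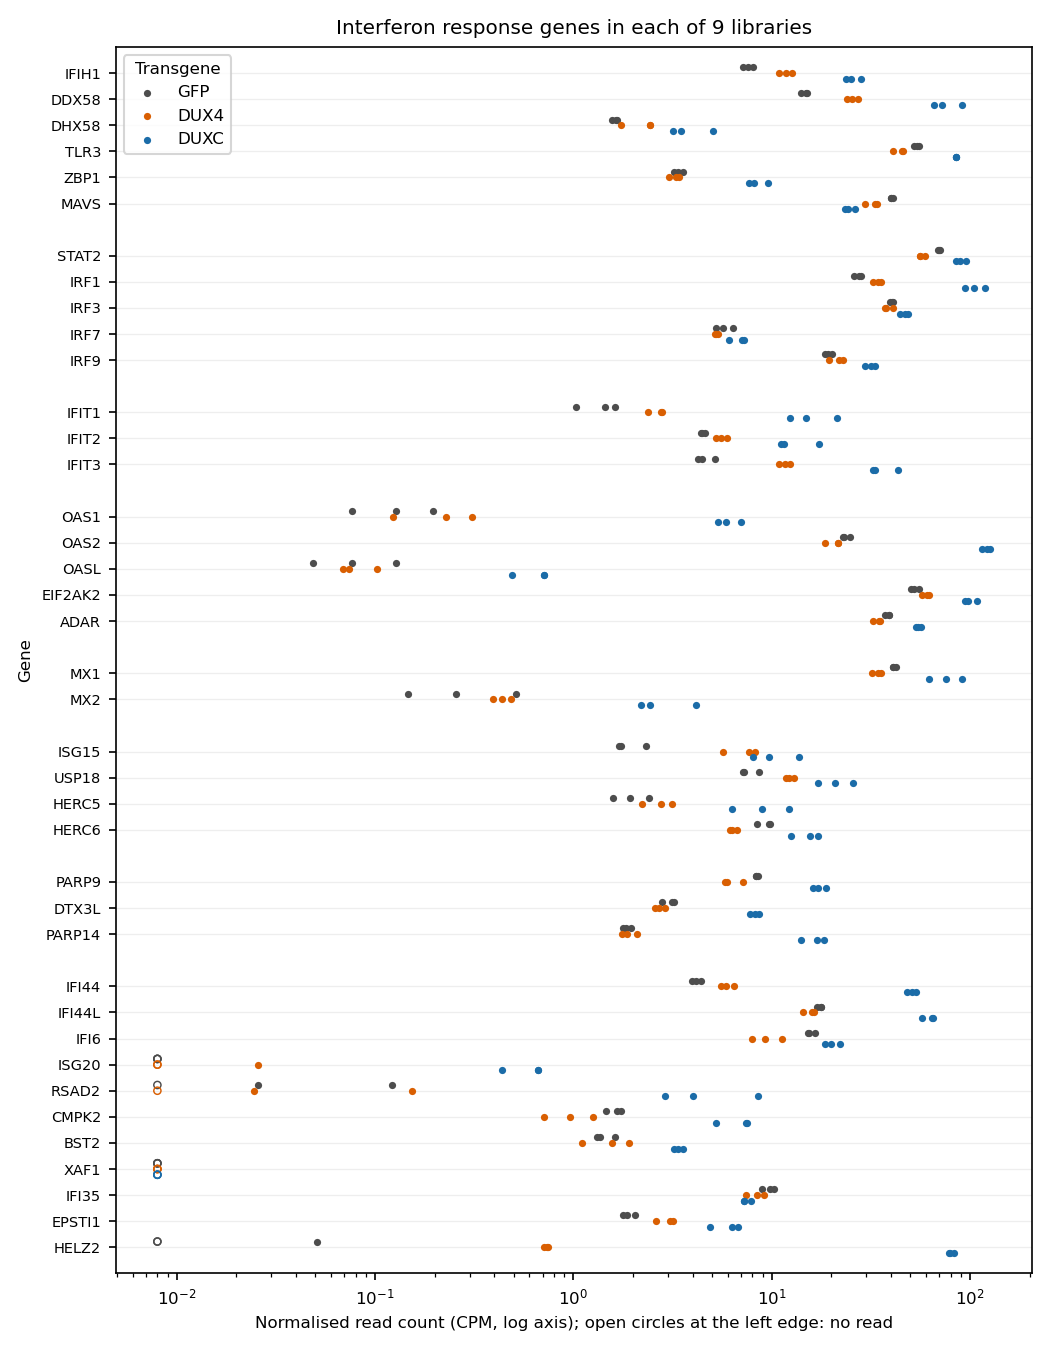
Normalised read counts (CPM, log axis) of the 39 interferon response genes with a row, 1 point per library, grouped by role from top to bottom. Open circles at the left edge mark libraries without a read. DUXC points lie right of the GFP points for most genes, MAVS and IFI35 lie the other way, and XAF1 had no read in any library.

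With DUX4, the same set moved in both directions and by small amounts. Of the 38 tested genes 12 rose, 11 fell and 15 did not pass the test against GFP. The shares, 31.6% higher and 28.9% lower, were near those of all tested genes, of which 32.9% were higher and 31.9% lower (64.8% in either direction). Only IFIT3, ISG15 and HELZ2 rose at least 2-fold, where 10.5% of all tested genes did, and none fell as much, where 5.26% of all did. The median log2 fold change was 0.11 (0.0857 without ISG20, which had too few reads in both groups for a fold), beside 0.00349 over all tested genes. In 13 genes every DUX4 library lay above every GFP library and in 11 every one lay below, where 34% and 33.1% of all tested genes did. Among the 32 genes that reached the filter's level in every GFP library 11 rose and 11 fell, beside 32.1% and 36.9% of all such genes, and 2 rose and 0 fell at least 2-fold, beside 6.09% and 5.63%.

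Compared directly, 35 of the 38 genes were lower with DUX4 than with DUXC, 1 was higher (MAVS), and 2 did not pass (ISG15 and IFI35). This is 92.1% lower, where 41.6% of all tested genes were lower and 82.4% passed in either direction. Of these, 26 were at least 2-fold lower, beside 20.7% of all tested genes, and none was 2-fold higher, beside 9.83% of all. In 35 genes every DUX4 library lay below every DUXC library and in 1 above, as in 42% and 41% of all tested genes. The median log2 difference was -1.32. Among the 32 genes that reached the filter's level in every GFP library, 29 were lower and 1 was higher with DUX4 than with DUXC. At least 2-fold, 20 were lower and 0 higher. Of all such genes 36.4% were lower and 46.2% higher, and 12.7% were lower and 10.1% higher at least 2-fold. The pattern that held most genes, 15 of them, was no call with DUX4 and an increase with DUXC, which 15.6% of all tested genes showed. These 15 include OAS1, OASL, MX2, ISG20 and RSAD2, which did not reach the filter's level in every GFP library. A further 12 genes rose with both factors, as did 16.8% of all tested genes, 11 of the 12 less with DUX4 by the direct test. In 9 genes the direction was opposite, lower with DUX4 and higher with DUXC, as in 7.87% of all tested genes: TLR3, STAT2, OAS2, ADAR, HERC6, PARP9, IFI44L, IFI6 and CMPK2. The DUX4 calls of IFI44L among the 9, and of DHX58, IRF1 and IRF9 among the 12, did not pass in every alternative setting. The comparisons of DUX4 and of DUXC with GFP share the 3 GFP libraries.

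**Figure D2:**
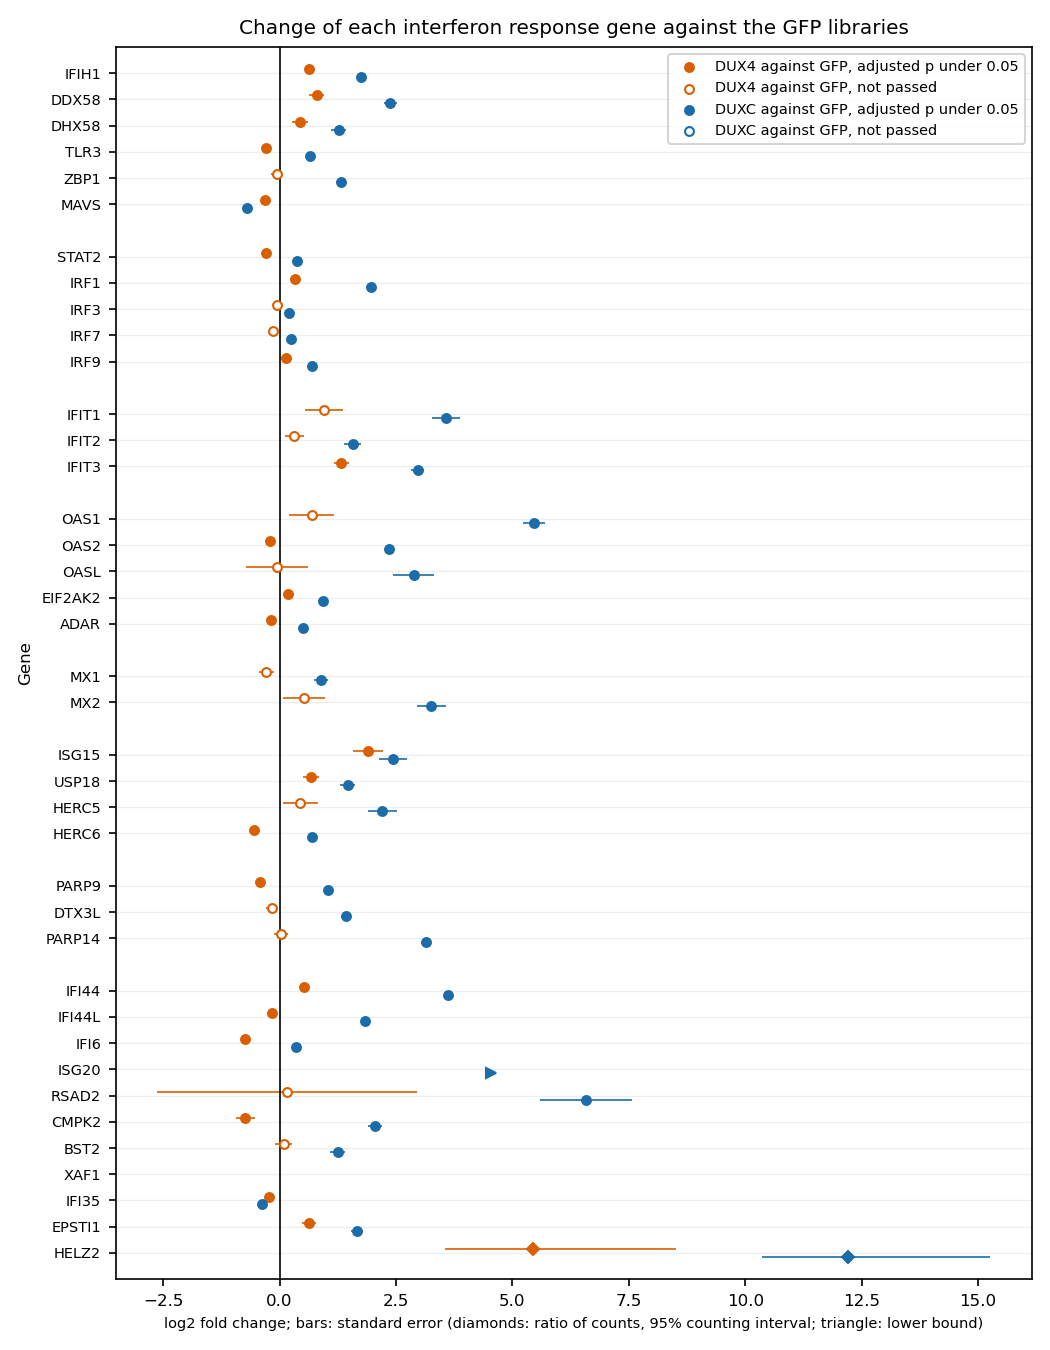
Log2 fold change of each gene against GFP, with DUX4 in orange and DUXC in blue, and bars of 1 standard error. Filled points passed an adjusted p of 0.05. HELZ2 is drawn as a ratio of counts with its 95% counting interval and ISG20 with DUXC as a lower bound. The blue points lie right of 0 for 36 genes, and the orange points lie on both sides of it.

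The third library of the DUX4 group and of the DUXC group was most often the highest of its group in this set. With DUXC, replicate 3 was the highest of its group in 28 of the 38 genes (73.7%), beside 33.1% of all tested genes. With DUX4 it was the highest in 27 (71.1%, beside 33.4%), and with GFP in 18 (47.4%, beside 35.4%). Replicate 3 exceeded the mean of the other DUXC libraries by a median log2 difference of 0.229 in the set, and the other DUX4 libraries by 0.119. The summed level of the set was graded over the DUXC libraries, at 1179, 1276 and 1366 CPM in replicates 1, 2 and 3. DUXC replicate 1 was the highest in 3 genes and replicate 2 in 7. The median coefficient of variation between DUXC libraries was 11.9% in the set and 4.65% over all tested genes. Without all 3 libraries numbered 3, a setting chosen after the data were seen, 13 genes were higher and 12 lower with DUX4, and 35 higher and 2 lower with DUXC. The replicate numbers mark no batch in the labels, and why these libraries differed was not tested.

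**Figure D3:**
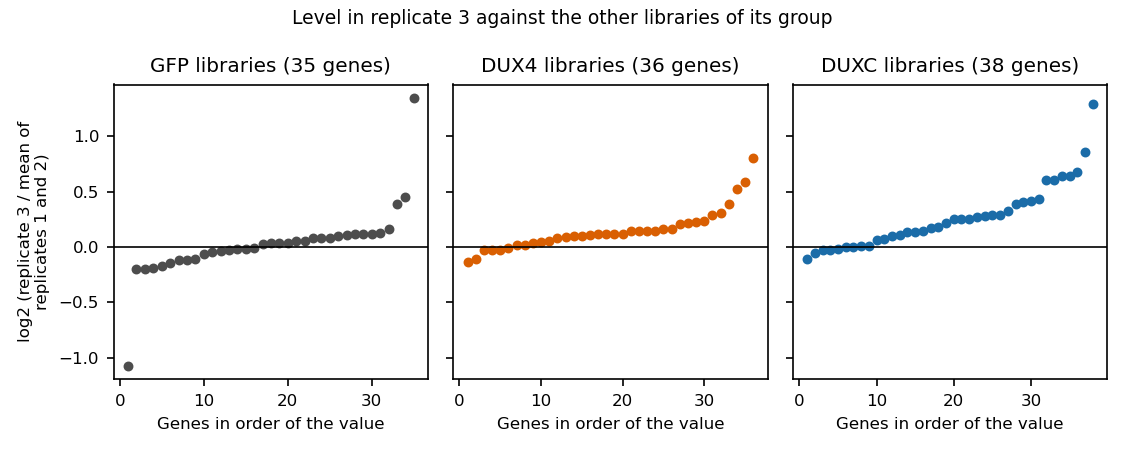
Log2 ratio of the level in replicate 3 to the mean of replicates 1 and 2, for each tested gene with reads in all 3 libraries of the group, in order of the value. In the DUXC panel most points lie above 0, with a median over the tested genes of 0.229, whereas the GFP points lie on both sides of 0, with a median of 0.0268.

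Among the RNA sensors, both cytosolic helicases rose with each factor, and more with DUXC. DDX58, which encodes RIG-I, stood at 15.0, 14 and 15.1 CPM with GFP, at 25.4, 24.0 and 27.2 CPM with DUX4 and at 65.5, 72.4 and 91.4 CPM with DUXC. No library of one group overlapped another, and the 3 groups were ordered GFP, DUX4, DUXC. The increase was 0.80 ± 0.16 (SE) on the log2 scale with DUX4 (edgeR adjusted p = 0.00442) and 2.38 ± 0.15 with DUXC (edgeR adjusted p = 4.13e-06). IFIH1, which encodes MDA5, showed the same order at 8.05, 7.57 and 7.18 CPM with GFP, at 11.8, 10.9 and 12.7 CPM with DUX4 and at 23.6, 25.3 and 28.3 CPM with DUXC. Its log2 increases were 0.63 ± 0.08 with DUX4 and 1.76 ± 0.07 with DUXC (edgeR adjusted p = 1.93e-09 and 2.55e-26). DHX58, which encodes LGP2, a regulator of the other helicases, stood at 1.57, 1.67 and 1.64 CPM with GFP, at 1.75, 2.43 and 2.44 CPM with DUX4 and at 3.18, 3.50 and 5.07 CPM with DUXC. It rose with DUXC by 1.27 ± 0.16. Its smaller increase with DUX4, 0.44 ± 0.18 (edgeR adjusted p = 0.0293), did not pass without DUX4 replicate 2 or 3 or any 1 of the GFP libraries, with adjusted p of 0.0518 to 0.118, nor with limma-voom (0.0747).

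The other sensors and the adaptor differed from the helicases in not rising with DUX4. TLR3, the endosomal receptor for double-stranded RNA, stood at 53.9, 55.0 and 52.1 CPM with GFP, at 45.3, 40.9 and 46.2 CPM with DUX4 and at 85.1, 85.0 and 84.9 CPM with DUXC. All DUX4 libraries lay below and all DUXC libraries above the GFP libraries, a fall by 0.28 ± 0.04 with DUX4 and a rise by 0.66 ± 0.04 with DUXC on the log2 scale. ZBP1, a sensor of Z-form nucleic acid, was at 3.38, 3.24 and 3.59 CPM with GFP, at 3.42, 3.30 and 3.05 CPM with DUX4 and at 7.69, 8.13 and 9.63 CPM with DUXC. It rose with DUXC alone of the tests against GFP (1.32 ± 0.10), and the DUX4 value was -0.06 ± 0.12 (edgeR adjusted p = 0.673). MAVS, the mitochondrial adaptor through which RIG-I and MDA5 signal, was at 39.9, 40.1 and 40.9 CPM with GFP, at 29.6, 33.3 and 34.1 CPM with DUX4 and at 24.4, 23.5 and 26.3 CPM with DUXC. It fell by 0.32 ± 0.05 with DUX4 and by 0.70 ± 0.05 with DUXC, and the level with DUX4 was the higher of these by 0.39 ± 0.05 (edgeR adjusted p = 3.72e-09).

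Of the transcription factors, IRF1 moved most. IRF1, an activator of interferon and antigen presentation genes, stood at 27.4, 26.1 and 28.3 CPM with GFP, at 32.3, 35.6 and 34.3 CPM with DUX4 and at 93.9, 119 and 105 CPM with DUXC. The DUXC libraries lay far above the others, with a log2 increase of 1.96 ± 0.09 (edgeR adjusted p = 1.38e-07). With DUX4 the increase was 0.32 ± 0.10 (edgeR adjusted p = 0.0225), and it did not pass without DUX4 replicate 2 or 3 or any 1 of the GFP libraries (adjusted p of 0.0529 to 0.0848). The span of IRF1 overlaps that of SLC22A5.

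STAT2 and IRF9 belong to the complex that binds interferon-stimulated genes. STAT2 stood at 69.7, 70.3 and 68.7 CPM with GFP, at 55.7, 56.1 and 59.6 CPM with DUX4 and at 84.7, 89.5 and 95.6 CPM with DUXC, lower in every DUX4 library and higher in every DUXC library than in any GFP library. Its log2 change was -0.28 ± 0.04 with DUX4 and 0.37 ± 0.04 with DUXC. IRF9 stood at 18.6, 19.3 and 20.1 CPM with GFP, at 19.4, 21.8 and 22.8 CPM with DUX4 and at 29.7, 33.3 and 31.7 CPM with DUXC and rose by 0.71 ± 0.06 with DUXC. With DUX4 its libraries overlapped those of GFP. That call (0.14 ± 0.06, edgeR adjusted p = 0.0298) did not pass without DUX4 replicate 2 or 3 or GFP replicate 1 or 2, with adjusted p of 0.0621 to 0.187, nor with limma-voom (0.051). IRF3 and IRF7, the factors that switch on interferon genes, changed little. IRF3 stood at 40.8, 40.5 and 39.6 CPM with GFP, at 37.4, 37.8 and 40.8 CPM with DUX4 and at 48.8, 46.9 and 44.3 CPM with DUXC, a rise by 0.21 ± 0.04 with DUXC. IRF7 stood at 5.21, 6.37 and 5.70 CPM with GFP, at 5.21, 5.37 and 5.18 CPM with DUX4 and at 6.12, 7.05 and 7.26 CPM with DUXC, with DUXC and GFP libraries that overlapped. Its rise with DUXC (0.24 ± 0.09, edgeR adjusted p = 0.0157) did not pass without DUXC replicate 2 or 3 or GFP replicate 1 (adjusted p of 0.0525 to 0.135), nor with no filter on low counts (0.0554). Neither passed with DUX4.

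The IFIT genes, whose proteins bind foreign RNA and block its translation, lie side by side on chromosome 14 within the span of LIPA. IFIT1 stood at 1.44, 1.03 and 1.62 CPM with GFP, at 2.78, 2.39 and 2.79 CPM with DUX4 and at 15.0, 12.3 and 21.4 CPM with DUXC, with DUXC replicate 3 well above the other DUXC libraries. Its log2 increase with DUXC was 3.57 ± 0.30 (edgeR adjusted p = 2.49e-05). With DUX4 every library lay above every GFP library, but the increase of 0.95 ± 0.41 did not pass (edgeR adjusted p = 0.085). It passed with DESeq2 (adjusted p = 0.000838), limma-voom (0.012), a fit of the 2 groups alone (1.38e-06) and a replicate block (4.28e-07), and without DUXC replicate 2 or 3 (0.00115 and 7.12e-07). IFIT2 stood at 4.60, 4.39 and 4.44 CPM with GFP, at 5.26, 5.53 and 5.95 CPM with DUX4 and at 11.6, 11.2 and 17.3 CPM with DUXC and rose with DUXC by 1.57 ± 0.18. Its DUX4 value of 0.32 ± 0.20 did not pass (edgeR adjusted p = 0.205). It passed with no filter on low counts (adjusted p = 0.00588), in a fit of the 2 groups alone (0.00379), with a replicate block (0.0133), without DUXC replicate 3 (0.00357) and without all 3 libraries numbered 3 (0.0478). IFIT3 stood at 5.19, 4.44 and 4.26 CPM with GFP, at 10.9, 11.6 and 12.4 CPM with DUX4 and at 33.4, 32.5 and 43.2 CPM with DUXC, with 3 separate groups. It rose by 1.33 ± 0.16 with DUX4 and 2.97 ± 0.14 with DUXC (edgeR adjusted p = 5.37e-05 and 1.71e-08).

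IFIT5 had no row under that symbol. The neighbouring locus LOC100151816, chr14:101254818-101266105 in Sscrofa11.1, has IFIT5 as a RefSeq synonym. It stood at 62.7, 64.1 and 62.7 CPM with GFP, at 61.8, 60.7 and 63.7 CPM with DUX4 and at 60.9, 57.3 and 63.5 CPM with DUXC, with no call against GFP (edgeR adjusted p = 0.571 with DUX4 and 0.141 with DUXC). This locus therefore did not show the increase of IFIT1, IFIT2 and IFIT3 beside it. LIPA, which spans those 3 genes, fell with DUX4 by 0.31 ± 0.05 and with DUXC by 0.14 ± 0.05 on the log2 scale.

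OAS1 and OAS2 make the second messenger that activates RNase L, and both rose with DUXC, as did their relative OASL. OAS1 was scarce with GFP and DUX4, at 0.196, 0.128 and 0.0770 CPM with GFP, at 0.123, 0.229 and 0.308 CPM with DUX4 and at 5.86, 5.39 and 7.03 CPM with DUXC. With DUXC it was 44.2-fold higher than with GFP, a log2 increase of 5.47 ± 0.23 (edgeR adjusted p = 2.82e-26). The DUX4 and GFP libraries overlapped. OAS2 stood at 24.8, 22.9 and 23.1 CPM with GFP, at 18.5, 21.5 and 21.6 CPM with DUX4 and at 115, 127 and 121 CPM with DUXC. The DUXC libraries lay far above both other groups, with a log2 increase of 2.36 ± 0.05, and the DUX4 libraries lay below the GFP libraries, a fall by 0.20 ± 0.05 (edgeR adjusted p = 0.00178). OASL, an OAS relative that enhances RIG-I signalling, stayed under 1 CPM in every library, at 0.0489, 0.128 and 0.0770 CPM with GFP, at 0.0738, 0.0688 and 0.103 CPM with DUX4 and at 0.490, 0.710 and 0.713 CPM with DUXC. It rose by 2.88 ± 0.43 with DUXC and had no call with DUX4.

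The enzymes PKR (EIF2AK2) and ADAR, which bind double-stranded RNA, changed by less. PKR, which halts translation, was at 50.3, 52.2 and 55.5 CPM with GFP, at 62.4, 57.4 and 60.6 CPM with DUX4 and at 94.2, 97.7 and 108 CPM with DUXC, with 3 separate groups and log2 increases of 0.19 ± 0.05 with DUX4 and 0.93 ± 0.04 with DUXC. ADAR, which edits adenosines in such RNA, was at 38.9, 37.5 and 39.2 CPM with GFP, at 35.4, 34.6 and 32.5 CPM with DUX4 and at 53.7, 54.9 and 56.5 CPM with DUXC. It fell by 0.17 ± 0.04 with DUX4 and rose by 0.51 ± 0.04 with DUXC, and no library of one group overlapped another.

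The MX genes encode GTPases that trap viral components and lie together on chromosome 13. MX1 stood at 40.7, 40.8 and 42.3 CPM with GFP, at 34.3, 32.1 and 35.6 CPM with DUX4 and at 61.8, 75.7 and 91.5 CPM with DUXC, and rose with DUXC by 0.89 ± 0.14 (edgeR adjusted p = 0.000964). Every DUX4 library lay below every GFP library. That difference of -0.28 ± 0.15 did not pass (edgeR adjusted p = 0.157), but passed with limma-voom (0.011), in a fit of the 2 groups alone (1.52e-06) and without DUXC replicate 1 or 3 (0.000178 and 0.000767). MX2 stood at 0.147, 0.257 and 0.513 CPM with GFP, at 0.393, 0.436 and 0.487 CPM with DUX4 and at 2.19, 2.42 and 4.18 CPM with DUXC, scarce with GFP and DUX4. It rose with DUXC by 3.26 ± 0.32 (edgeR adjusted p = 4.89e-09), with DUXC replicate 3 well above the other DUXC libraries.

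In the ISG15 system, ISG15 is a ubiquitin-like modifier, HERC5 and HERC6 are ligases of the family that attaches it and USP18 removes it. ISG15 rose with both, at 2.32, 1.69 and 1.74 CPM with GFP, at 5.68, 7.71 and 8.28 CPM with DUX4 and at 8.03, 9.64 and 13.8 CPM with DUXC. The increase was 3.74-fold with DUX4 and 5.43-fold with DUXC (SE of 0.32 and 0.31 on the log2 scale, edgeR adjusted p = 0.0018 and 0.000241). The DUX4 and DUXC libraries overlapped, and their difference of -0.54 ± 0.24 on the log2 scale did not pass (edgeR adjusted p = 0.0757). It passed with DESeq2 (adjusted p = 0.0294), limma-voom (0.00202), scaling by total counts alone (0.0417) and a block by replicate number (0.00126), and without DUXC replicate 1 or 3 (0.0122 and 0.0353). ISG15 overlaps LOC110261384.

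USP18, which also damps interferon receptor signalling, stood at 7.19, 8.65 and 7.29 CPM with GFP, at 12.9, 11.8 and 12.2 CPM with DUX4 and at 17.2, 21.0 and 25.8 CPM with DUXC. Its 3 groups were separate, with log2 increases of 0.68 ± 0.17 and 1.47 ± 0.16 for DUX4 and DUXC. HERC5 was at 1.93, 1.59 and 2.41 CPM with GFP, at 3.15, 2.23 and 2.77 CPM with DUX4 and at 6.30, 8.96 and 12.2 CPM with DUXC and rose with DUXC by 2.21 ± 0.31. Its DUX4 value of 0.45 ± 0.38 did not pass (edgeR adjusted p = 0.347), though it did in a fit of the 2 groups alone (0.00873) and without DUXC replicate 1 or 3 (0.0245 and 0.0263). HERC6, beside HERC5 on chromosome 8, moved the other way with DUX4, at 9.84, 8.47 and 9.67 CPM with GFP, at 6.69, 6.19 and 6.31 CPM with DUX4 and at 12.5, 15.5 and 17.1 CPM with DUXC. The fall with DUX4 was 0.55 ± 0.10 and the rise with DUXC 0.69 ± 0.09.

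PARP9, DTX3L and PARP14 are ADP-ribosylation factors that act in interferon signalling, encoded close together on chromosome 13. PARP9 was at 8.56, 8.32 and 8.37 CPM with GFP, at 5.80, 5.96 and 7.20 CPM with DUX4 and at 17.1, 16.2 and 18.8 CPM with DUXC, and its span overlaps that of DTX3L. It fell by 0.42 ± 0.09 with DUX4 and rose by 1.05 ± 0.07 with DUXC. DTX3L, its partner ubiquitin ligase, was at 3.16, 3.24 and 2.80 CPM with GFP, at 2.58, 2.89 and 2.72 CPM with DUX4 and at 7.80, 8.25 and 8.61 CPM with DUXC, with a rise of 1.42 ± 0.10 with DUXC and no call with DUX4 (-0.16 ± 0.12). PARP14 changed most of the 3, at 1.79, 1.85 and 1.95 CPM with GFP, at 1.87, 1.77 and 2.10 CPM with DUX4 and at 14, 16.9 and 18.4 CPM with DUXC. DUXC raised it 8.82-fold (log2 3.14 ± 0.11, edgeR adjusted p = 1.38e-29), whereas DUX4 and GFP libraries overlapped.

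Of the remaining interferon-stimulated genes, IFI44 and IFI44L lie next to each other on chromosome 6 and differed in their response to DUX4. IFI44 stood at 3.96, 4.13 and 4.39 CPM with GFP, at 5.58, 5.90 and 6.43 CPM with DUX4 and at 48.0, 51.3 and 53.4 CPM with DUXC. It rose with both, by 0.52 ± 0.09 with DUX4 and by 3.61 ± 0.07 with DUXC (edgeR adjusted p = 2.14e-06 and 3.13e-41). IFI44L stood at 16.9, 17.7 and 17.8 CPM with GFP, at 15.9, 14.3 and 16.4 CPM with DUX4 and at 57.2, 65.2 and 64.3 CPM with DUXC. It rose by 1.83 ± 0.05 with DUXC and fell by 0.17 ± 0.06 with DUX4 (edgeR adjusted p = 0.0123), a call that did not pass without DUX4 replicate 2 (0.132) or with DESeq2 (0.0553). IFI6, an inhibitor of apoptosis and of viral replication, was at 15.4, 15.3 and 16.5 CPM with GFP, at 9.29, 7.94 and 11.3 CPM with DUX4 and at 22.0, 18.6 and 19.9 CPM with DUXC, with a fall by 0.73 ± 0.09 and a rise by 0.36 ± 0.08 in the same order.

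RSAD2 and CMPK2, neighbours on chromosome 3 whose enzymes together make a chain-terminating nucleotide, differed in their control level. RSAD2, which encodes viperin, was at 0.122, 0.0257 and 0 CPM with GFP, at 0.0246, 0 and 0.154 CPM with DUX4 and at 4.0, 2.91 and 8.49 CPM with DUXC. DUXC raised it from near 0 to a mean of 5.13 CPM, with replicate 3 highest, a fitted log2 increase of 6.58 ± 0.99 (edgeR adjusted p = 0.000695). That value was 8.32 without GFP replicate 1, which holds most of the control reads, so its size rests on a few reads. CMPK2 was at 1.66, 1.46 and 1.74 CPM with GFP, at 0.713, 0.964 and 1.26 CPM with DUX4 and at 5.24, 7.39 and 7.52 CPM with DUXC, with 3 separate groups. It fell by 0.74 ± 0.21 with DUX4 and rose by 2.05 ± 0.15 with DUXC (edgeR adjusted p = 0.00211 and 8.76e-16).

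BST2, which encodes tetherin, a protein that holds budding virus at the cell surface, was at 1.32, 1.62 and 1.36 CPM with GFP, at 1.92, 1.10 and 1.56 CPM with DUX4 and at 3.23, 3.57 and 3.39 CPM with DUXC and rose with DUXC by 1.25 ± 0.16. EPSTI1 was at 2.06, 1.87 and 1.77 CPM with GFP, at 3.20, 2.62 and 3.08 CPM with DUX4 and at 4.90, 6.32 and 6.80 CPM with DUXC and rose with both, by 0.63 ± 0.15 and 1.66 ± 0.13. IFI35 was the exception, at 8.93, 9.86 and 10.3 CPM with GFP, at 7.45, 8.40 and 9.18 CPM with DUX4 and at 7.28, 7.86 and 7.29 CPM with DUXC. It fell with DUXC by 0.37 ± 0.08 (edgeR adjusted p = 8.02e-05). With DUX4 its libraries overlapped those of GFP, and the fall by 0.22 ± 0.08 did not pass without DUX4 replicate 1 or GFP replicate 2 or 3 (adjusted p of 0.0534 to 0.155) or with DESeq2 (0.0809).

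ISG20, a 3′ to 5′ exonuclease gene, had no read in any GFP library and 1 read in the DUX4 libraries. With DUXC its level was 0.439, 0.661 and 0.663 CPM, at least 23.3-fold above a floor of 3 reads over the GFP libraries. Its neighbour LOC100359361 on chromosome 1 went from 0 reads with GFP and 8 with DUX4 to 3135 with DUXC. XAF1 had a row but no read in any library, which allows for counting error alone a level of up to 0.0253 CPM in the GFP group, 0.0243 in the DUX4 group and 0.0252 in the DUXC group. SAMD9 and RNF213 had no row under those symbols and were not analysed here.

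HELZ2, a helicase gene known as an interferon-stimulated coactivator, had the largest ratio of the set. It stood at 0, 0 and 0.0513 CPM with GFP, at 0.738, 0.711 and 0.743 CPM with DUX4 and at 78.5, 82.8 and 78.9 CPM with DUXC. Both reads with GFP came from replicate 3, against 90 reads over the DUX4 libraries and 9519 over the DUXC libraries. The ratio to GFP was 43.4 with DUX4 (95% counting interval 11.7 to 363.5) and 4757 with DUXC (1317 to 39290). Without GFP replicate 3 the controls hold no read, so the size of both ratios rests on that library, while the level with DUXC was 80.1 ± 2.37 CPM (SD, n = 3). DUX4 against DUXC differed by -6.77 ± 0.08 (edgeR adjusted p = 1.51e-48).

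The position of this row differs from that of the human gene. In Sscrofa11.1 it lies at chr6:59916378-59932537, between LOC100519606 and NLRP9. Both of these had 0 reads with GFP, with 0 and 1 read with DUX4 and 40 and 121 reads with DUXC. Further out, U2AF2 had 21449, 25800 and 20686 reads and EPN1 7583, 10185 and 4907 reads with GFP, DUX4 and DUXC. In human, HELZ2 lies between FNDC11 and GMEB2. In the pig annotation those genes are adjacent on chromosome 17 with no gene between them. Whether the chromosome 6 row is the counterpart of human HELZ2 was not tested. Without it, the summed level of the other 38 genes with a row was 1101 to 1287 CPM in the DUXC libraries, and 534 to 542 CPM with GFP.

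**Figure D4:**
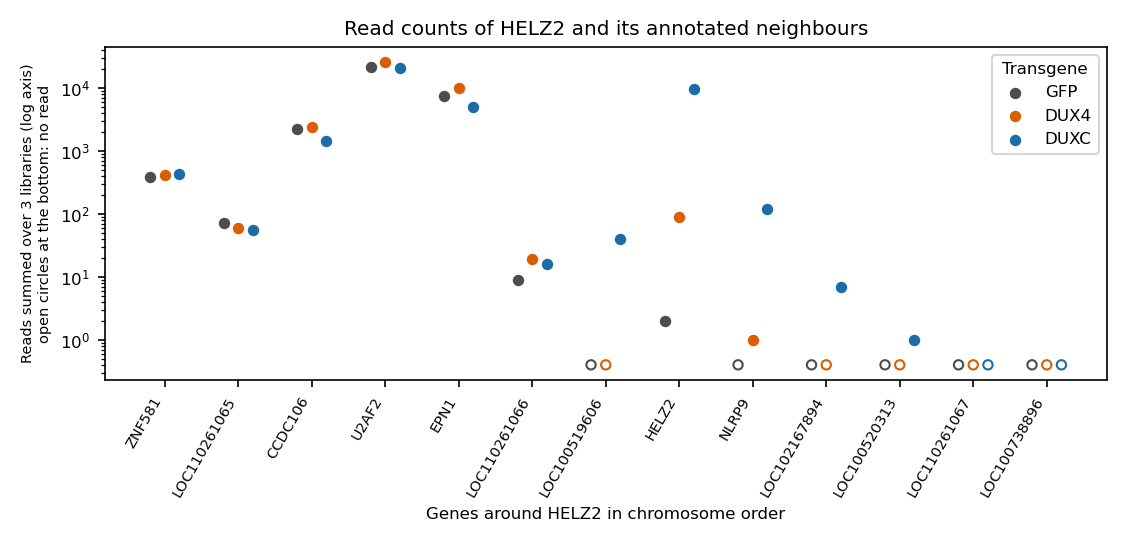
Reads summed over the 3 libraries of each group (log axis) for HELZ2 and the genes annotated around it, in chromosome order. Open circles at the bottom mark no read. HELZ2 had 2 reads with GFP, 90 with DUX4 and 9519 with DUXC, and its direct neighbours had reads almost only with DUXC.

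The interferons themselves were scarce. Of 34 rows of interferon genes, most of them type I genes of the alpha, delta and omega subfamilies, 32 were too low to be tested. IFNB1, the interferon of fibroblasts, had no read with GFP or DUX4 and 14, 1 and 8 reads in the DUXC libraries, at least 7.66-fold above the floor, but below the filter for testing. IFNG, the type II interferon, had 3 reads over the GFP libraries, 3 over the DUX4 libraries, and 20, 40 and 21 reads in the DUXC libraries. Its ratio to GFP was 27.0 with DUXC (8.91 to 133.6), with edgeR adjusted p = 3.49e-09, and its size rests on the 3 control reads. IFN-OMEGA-2 had reads with DUXC only, 13 in all. IFN-OMEGA-6, the other tested gene, had no call in any comparison. Reads of these near-identical copies may be split between rows, so single members are uncertain.

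The receptors and kinases were present in every group, except the type III receptor gene IFNLR1, which had no read with GFP. Of 10, 5 rose and 3 fell with DUXC (50% and 30%, beside 40.2% and 42.3% of all tested genes). With DUX4 2 rose and 5 fell (20% and 50%, beside 32.9% and 31.9% of all). IFNAR2, a subunit of the type I receptor, rose from 30.5 ± 0.899 CPM with GFP to 78.7 ± 3.40 with DUXC (SD, n = 3), a log2 increase of 1.37 ± 0.04, and fell by 0.18 ± 0.05 with DUX4. Its partner IFNAR1 fell with DUX4 by 0.55 ± 0.03 and had no call with DUXC (-0.04 ± 0.03). That value was called higher when scaled by total counts alone (0.0882, edgeR adjusted p = 0.0153) and lower with no filter on low counts (-0.0809, edgeR adjusted p = 0.031), so no direction is given. JAK2 rose with DUXC by 1.03 ± 0.04, whereas JAK1 and TYK2, the kinases of the type I receptor, fell by 0.42 ± 0.03 and 0.61 ± 0.03. JAK1 fell and JAK2 rose with DUX4 too. Over the alternative settings their log2 changes with DUX4 were -0.625 to -0.588 and 0.248 to 0.302, and passed in each. For TYK2 that change was 0.0585 to 0.108 and passed in only some settings.

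The genes that lead to interferon induction moved in both directions. With DUXC 11 of 24 tested rose and 7 fell (45.8% and 29.2%, beside 40.2% and 42.3% of all tested genes). With DUX4 6 rose and 11 fell (25% and 45.8%, beside 32.9% and 31.9%). TLR7, a sensor of single-stranded RNA, rose with DUXC from 0.413 ± 0.117 to 5.72 ± 0.641 CPM, a log2 increase of 3.79 ± 0.19. TRAF6, a ubiquitin ligase of Toll-like receptor signalling, rose by 1.16 ± 0.04, and SIKE1, a suppressor of TBK1, by 1.33 ± 0.04. UNC93B1, which carries TLR3 and TLR7 to endosomes, fell with DUXC by 1.10 ± 0.08, and TBKBP1, a partner of TBK1, fell with both, by 1.03 ± 0.07 with DUX4 and 1.14 ± 0.07 with DUXC. Of the DNA-sensing genes, STING1 (listed as TMEM173) rose with DUXC by 1.09 ± 0.22 and CGAS (listed as MB21D1) rose with DUX4 by 0.83 ± 0.22. TBK1 rose with DUX4 by 0.24 ± 0.05, and its DUXC value of 0.09 ± 0.05 did not pass (edgeR adjusted p = 0.0757). The DUXC value was larger and passed with DESeq2 size factors (0.165, adjusted p = 0.00113), total counts alone (0.212, 5.79e-05), DESeq2 (0.165, 0.00315) and a fit of the 2 groups alone (0.139, 0.00374). It also passed without DUXC replicate 1 (0.125, 0.0211) or GFP replicate 2 (0.108, 0.0489), and was -0.00301 without all 3 libraries numbered 3.

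Of 15 genes that restrain the response, 7 rose and 6 fell with DUXC (46.7% and 40%), and 5 rose and 6 fell with DUX4 (33.3% and 40%). Of all tested genes 40.2% rose and 42.3% fell with DUXC, and 32.9% and 31.9% with DUX4. SOCS1, an inhibitor of JAK kinases induced by their signal, rose with both, by 1.98 ± 0.18 with DUX4 and 2.22 ± 0.18 with DUXC. Their difference of -0.24 ± 0.14 did not pass (edgeR adjusted p = 0.0949), but did with DESeq2 size factors (0.0427) and total counts alone (0.0187). PIAS1, a SUMO ligase that restrains cytokine signalling, and the phosphatase PTPN1 rose with DUXC by 1.20 ± 0.04 and 1.07 ± 0.04, with no call for DUX4. TRAFD1, a feedback regulator of Toll-like receptor and RIG-I signalling, rose with DUXC by 0.86 ± 0.04 and fell with DUX4 by 0.29 ± 0.04. NLRX1, an inhibitor of MAVS, fell with both, by 0.32 ± 0.06 with DUX4 and 1.05 ± 0.07 with DUXC.

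A second list of interferon-stimulated genes, apart from the 42, was also mostly higher with DUXC. Of 36 tested 25 rose and 9 fell with DUXC (69.4% and 25%, beside 40.2% and 42.3% of all tested genes), with a median log2 change of 0.875. This count includes genes scarce with GFP, such as CXCL10, that passed the count filter only through the group in which they are abundant. Neither it nor the counts of the other pathway lists were repeated for genes that reach the filter's level in every GFP library. With DUX4 7 rose and 16 fell (beside 32.9% and 31.9% of all), with a median of -0.117 that counts genes without control reads at their bound. CXCL10, a chemokine that attracts T cells, stood at 0.0734, 0.0257 and 0.0257 CPM with GFP, at 0.172, 0.0918 and 0.154 CPM with DUX4 and at 23.5, 42.4 and 30.2 CPM with DUXC. Its fitted log2 increase with DUXC was 9.47 ± 0.58 (edgeR adjusted p = 4.27e-06). It was 10.1 without GFP replicate 1, and rests on 5 reads over the GFP libraries. TNFSF10, which encodes the death ligand TRAIL, stood at 9.40, 8.40 and 8.85 CPM with GFP, at 2.73, 2.55 and 3.15 CPM with DUX4 and at 97.2, 96.5 and 99.8 CPM with DUXC. It rose by 3.46 ± 0.05 with DUXC and fell by 1.67 ± 0.09 with DUX4 (edgeR adjusted p = 1.51e-22), with no overlap between groups.

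The other named genes of that list rose with DUXC as well, but genes were named by size of change. Of the 36 tested genes of the list, 16 rose and 2 fell at least 2-fold with DUXC. Of all tested genes, 21.3% rose and 7.97% fell as much. The lowest log2 change in the list was -1.24. GBP1, a GTPase of cell-autonomous immunity, rose by 3.11 ± 0.06, and by 0.56 ± 0.08 with DUX4. The chemokine CCL5 rose by 3.62 ± 0.17 with DUXC and the antigen presentation regulator NLRC5 by 3.35 ± 0.19. PLSCR1 rose by 1.95 ± 0.04 with DUXC and fell by 0.13 ± 0.05 with DUX4, the latter not without GFP replicate 3 (edgeR adjusted p = 0.0596) or with DESeq2 (0.0665). TMEM140 moved the same way, up by 1.78 ± 0.17 and down by 0.87 ± 0.25.

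**Figure D5:**
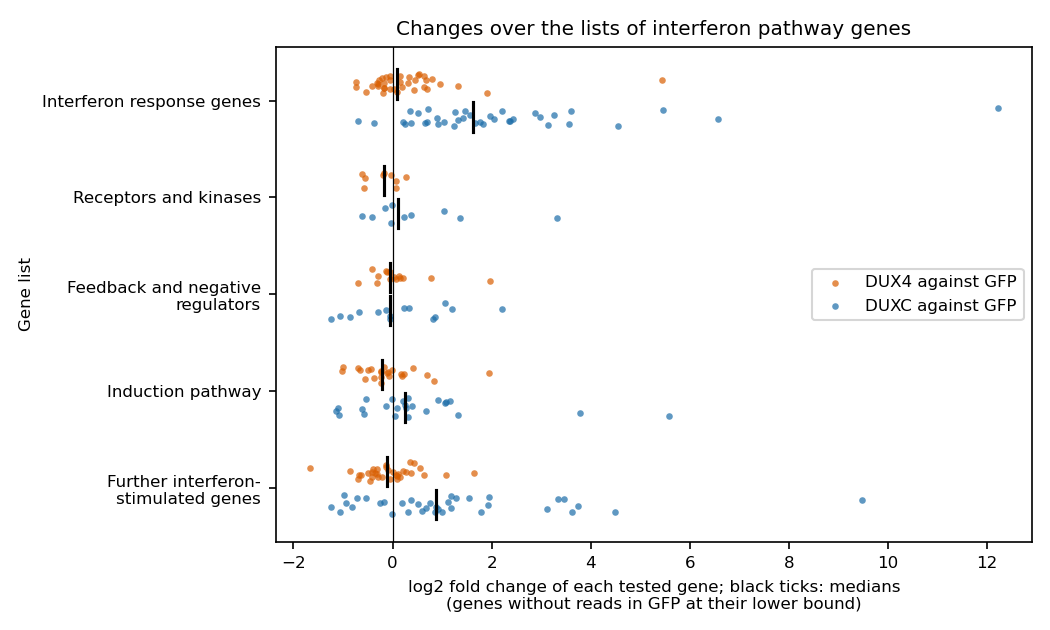
Log2 fold change against GFP of the tested genes in 5 lists, 1 point per gene, DUX4 in orange and DUXC in blue, with black ticks at the medians, leaving out genes with too few reads in both groups for a fold. The DUXC median was 1.62 for the interferon response genes and 0.875 for the further interferon-stimulated genes, and the DUX4 medians of the 5 lists lay between -0.20 and 0.09.

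Markers of immune cells, which express many of these genes, were low. Their summed level over 11 markers was 16.6 to 19.8 CPM with GFP, 14.2 to 16.1 CPM with DUX4 and 22.6 to 24.6 CPM with DUXC. PTPRC, the pan-leukocyte marker CD45, had no read with GFP or DUX4 and 16 reads over the DUXC libraries. CD3E of T cells had no read with GFP and 1 read in each of the other groups. CD14 went from 6.48 ± 0.567 CPM with GFP to 15.0 ± 0.858 with DUXC, and was the only marker of this list at 10 CPM or more in any group. Of 7 tested markers 4 rose and 2 fell with DUXC (57.1% and 28.6%, beside 40.2% and 42.3% of all tested genes). LYZ rose from 0.0762 ± 0.0684 to 1.22 ± 0.336 CPM, whereas CSF1R fell from 2.67 ± 0.487 to 0.396 ± 0.0595 CPM and ITGAM from 6.36 ± 0.477 to 3.02 ± 0.334 CPM.

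Other marker lists moved with DUXC too. The summed level of 11 myoblast markers was 91.6 to 101 CPM with GFP, 109.8 to 112.7 CPM with DUX4 and 64.1 to 66.8 CPM with DUXC. NCAM1, most of this sum, fell from 86.4 to 55.8 CPM with DUXC. Of 6 tested myoblast markers 4 rose and 2 fell with DUXC (66.7% and 33.3%, beside 40.2% and 42.3% of all tested genes). The summed level of 7 endothelial markers was 17.3 to 17.9 CPM with GFP, 12.6 to 13.5 CPM with DUX4 and 33.5 to 36.2 CPM with DUXC. PECAM1 rose from 6.16 ± 0.525 to 24.7 ± 1.27 CPM and TEK from 0.142 ± 0.0602 to 2.83 ± 0.176 CPM, EMCN fell, and CDH5 had no read with GFP. The summed level of 10 fibroblast markers was 49940 to 53060 CPM with GFP, 29190 to 32930 CPM with DUX4 and 25680 to 25700 CPM with DUXC. COL1A1, COL1A2 and COL3A1 made up most of this sum. Of the 10 markers 3 rose and 6 fell with DUXC (30% and 60%, beside 40.2% and 42.3% of all tested genes). With DUX4 2 rose and 8 fell (20% and 80%, beside 32.9% and 31.9%). PDGFRA, FAP and DPT rose with DUXC, and DPT and TCF21 with DUX4. The part of any of these cell types in the interferon response genes was not tested.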

How the data were processed

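Gene counts were deposited by the authors for 9 libraries made with a stranded poly(A) kit. Per the submitters' processing notes, reads were handled with CASAVA 1.9 and Trim Galore, the build was Sscrofa11.1 and counting used featureCounts. The column names point to the aligner Subread. The annotation release, the strand setting and versions other than that of CASAVA were not given.

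The deposited counts were used unscaled. Genes were filtered with filterByExpr by group (minimum count 10), which left 15956 and removed 11383. All 9 libraries were fitted in 1 model by group with edgeR 4.0.16 (R 4.3.3), with TMM factors and the robust quasi-likelihood F test, two-sided. P-values were adjusted by Benjamini-Hochberg over all tested genes, with a threshold of 0.05. Each transgene was contrasted with GFP, and the transgenes with each other. CPM values use total counts times TMM factors. The floor for a group without reads is 3 counts over its libraries. Counting intervals are exact, at 95%, and they and the floors cover counting error only. The test was checked on simulated counts of genes not scarce with GFP, with only a small part of them changed. That check does not cover genes near 0 with GFP or the scaling when most genes change.

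The members and lists were chosen with earlier results of these data known. Library values are given for members called with at least a 2-fold change and 1 CPM in the higher group and to complete a role group. Of other pathway genes, up to 6 per list and comparison by size of change are named under the same limits, with 9 core genes whatever their values, 1 of which is not reported here. Positions, names and synonyms come from RefSeq for Sscrofa11.1. Alternatives were DESeq2 1.42.0, limma 3.58.1 (voom), other scalings, no filter, pairs of groups, a replicate block and each library left out. Promoter sequences were not analysed here.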

Additional observations from a re-analysis of the deposited data

Results flagged for a closer look

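Against GFP, 9 genes were called lower with DUX4 and higher with DUXC. The libraries of MX1 also lay on opposite sides of the GFP libraries, but its difference with DUX4 did not pass. Among the 9, the DUX4 call of IFI44L did not pass without DUX4 replicate 2 or with DESeq2. The 9 genes were picked for these opposite calls, which fixes the sign of the difference between the transgenes. Values of that difference are therefore a description. The log2 difference of DUX4 against DUXC was -0.95 for TLR3, -0.66 for STAT2, -2.55 for OAS2, -0.69 for ADAR and -1.23 for HERC6. It was -1.46 for PARP9, -2.00 for IFI44L, -1.09 for IFI6 and -2.78 for CMPK2. Both comparisons with GFP share their control libraries, and all 9 libraries enter the 1 fit.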

How the results depend on the processing

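Under 17 other settings, the number of genes called against GFP ranged from 19 to 27 with DUX4 (23 as reported) and from 37 to 38 with DUXC (38), and between the transgenes from 36 to 37 (36). Leaving out 1 library at a time gave 19 to 27, 37 to 38 and 36 to 37, with 9 to 15 higher and 10 to 12 lower for DUX4 against GFP and 1 to 2 higher for DUX4 against DUXC. The latter count was 2, in place of 1, with no filter on low counts and without DUX4 replicate 1, IFI35 being the added gene. Over all tested genes, replicate numbers did not pair the libraries. Correlations of same-numbered libraries were -0.0567 to 0.0749, and 4 of 9 libraries were closest to their own number. Pairing was not checked in the interferon response genes alone. In these, replicate 3 was the highest library in 47.4% with GFP, 71.1% with DUX4 and 73.7% with DUXC. With the replicate number as a block, 25, 38 and 37 genes were called.

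With DUX4 against GFP, 567 of 626 values of single interferon response genes kept their direction and call. Of the others, 25 lost and 22 gained a call and 12 reversed, in 15 genes. With DUXC 641 of 646 were kept, the exception being IRF7, and for DUX4 against DUXC 637 of 646, the exceptions being ISG15 and IFI35. Reversed log2 values of the set for DUX4 against GFP, none called, were 0.0232 for ZBP1, 0.0132, 0.00936, 0.0604 and 0.358 for OASL, -0.0335 for PARP14, -0.0266, -1.84, -0.133, -0.386 and -2.39 for RSAD2 and -0.115 for BST2. Outside the set, NLRC5 reversed to 0.0337, also without a call. Leaving out 1 library at a time gave -0.328 to 0.358 for OASL, -0.0335 to 0.0933 for PARP14, -1.84 to 1.91 for RSAD2, -0.115 to 0.285 for BST2 and -0.503 to 0.0337 for NLRC5. For DUXC against GFP only genes outside the set reversed. Their values were 0.0409, 0.0409, 0.0882 and 0.0153 for IFNAR1 (the third, scaled by total counts alone, called at an adjusted p of 0.0153 in edgeR) and -0.00301 for TBK1. The cause was not tested. Scaling by total counts alone moved the median of all genes by 0.125 for DUXC against GFP and reversed no member. Low depth limits OAS1, OASL, ISG20, RSAD2 and HELZ2, whose control levels rest on few reads.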
